A study of Rattus norvegicus with 6 samples.

Results

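The lactoperoxidase, DUOX and anion exchanger system was examined in lung RNA of rats that had inhaled silica dust, through 5 named genes: Lpo, Slc26a4, Duox1, Duox2 and Cftr. Every probe set annotated to one of these genes and to no other was taken. That gave 4 genes with 1 probe set each, out of 14217 named genes and 31042 probe sets on the array. Duox1 had no probe set of its own in the annotation and was not analysed here. The genes were chosen by their silica and control signals on these same arrays, on the log2(signal + 16) scale, so their values are given as a description, and nothing is read from a threshold or test on them.

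The silica group held 3 Lewis rats, an inbred strain, that breathed aerosolised silica at 6.2 mg/m3 during 6 weeks, on 5 days of each week and for 6 hours on each day. In the control group were 3 Lewis rats kept in filtered air under similar chamber conditions. Whole-lung RNA of each animal was hybridised to 1 short-oligonucleotide array. The age and sex of the animals, and the time from the last exposure to collection of the lungs, are not stated in the labels.

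Lactoperoxidase, DUOX enzymes and anion transporters form an oxidative defence at the surface of the airway. DUOX1 and DUOX2 are membrane NADPH oxidases that release hydrogen peroxide into the airway lining fluid, and each needs a maturation factor, DUOXA1 or DUOXA2, to leave the endoplasmic reticulum. Lactoperoxidase, a secreted heme peroxidase, uses that hydrogen peroxide to oxidise thiocyanate or iodide to products that kill microbes. The anions reach the lumen through CFTR, a cyclic AMP-gated anion channel, and through pendrin, the chloride, iodide, thiocyanate and bicarbonate exchanger encoded by Slc26a4.

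The promoter windows of the 4 measured genes are shown because 3 of them had higher signals in every silica lung and the other did not. Each runs from 250 bases before to 50 bases after the annotated start in RefSeq (rat build GRCr8), 5′ to 3′ on the strand of the gene. The windows lie at chr10:73123407-73123706 for Lpo on the minus strand, chr6:53873167-53873466 for Slc26a4 on the minus strand, chr4:47527379-47527678 for Cftr on the plus strand and chr3:129698704-129699003 for Duox2 on the minus strand. Capitals mark the letters TATAAA or their reverse complement.
Lpo: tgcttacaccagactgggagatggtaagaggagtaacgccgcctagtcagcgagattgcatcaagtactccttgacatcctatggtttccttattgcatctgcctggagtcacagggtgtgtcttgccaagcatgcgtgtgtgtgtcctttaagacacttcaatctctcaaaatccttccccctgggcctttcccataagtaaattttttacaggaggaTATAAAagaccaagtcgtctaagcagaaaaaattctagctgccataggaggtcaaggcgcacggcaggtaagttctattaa
Slc26a4: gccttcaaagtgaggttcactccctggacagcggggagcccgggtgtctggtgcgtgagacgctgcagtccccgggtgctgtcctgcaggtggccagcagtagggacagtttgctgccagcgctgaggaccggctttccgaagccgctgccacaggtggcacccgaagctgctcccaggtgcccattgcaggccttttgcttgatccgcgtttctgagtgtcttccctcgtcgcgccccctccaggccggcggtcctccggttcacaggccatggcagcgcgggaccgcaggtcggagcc
Cftr: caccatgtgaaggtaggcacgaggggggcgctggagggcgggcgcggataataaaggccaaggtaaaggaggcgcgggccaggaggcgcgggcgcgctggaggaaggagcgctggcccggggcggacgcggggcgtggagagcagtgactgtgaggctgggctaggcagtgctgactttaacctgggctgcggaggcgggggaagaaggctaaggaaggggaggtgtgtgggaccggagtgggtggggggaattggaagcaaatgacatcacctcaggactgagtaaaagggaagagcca
Duox2: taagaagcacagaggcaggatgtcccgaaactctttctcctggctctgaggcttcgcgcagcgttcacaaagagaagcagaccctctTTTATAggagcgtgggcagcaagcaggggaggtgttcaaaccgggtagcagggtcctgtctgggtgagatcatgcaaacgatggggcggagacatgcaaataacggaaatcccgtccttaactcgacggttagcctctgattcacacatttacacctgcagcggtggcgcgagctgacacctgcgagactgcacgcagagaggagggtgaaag
TATAAA stood on the coding strand 31 bases before the start of Lpo, and in reverse 163 bases before the start of Duox2. It was searched after the sequences had been seen. Among all 33469 promoter windows of this length, 14.2% held TATAAA on either strand and 8.80% on the coding strand. The windows differed in base composition, with 46.0% G and C in Lpo, 67.0% in Slc26a4, 65.0% in Cftr and 55.3% in Duox2, against a median of 51.7% over all windows. None of the 4 windows held TTC and GAA set 4 bases apart, the spacing bound by STAT6, which 7.28% of all windows held. None held the NF-kB consensus, which 4.18% of all windows held on either strand. TATAAA was the only motif searched that had a match in the 4 windows, so no overlap between motifs could arise.

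Lactoperoxidase gave the widest separation of the system. The Lpo signal, a linear intensity, was 1348, 2179 and 1355 in silica replicates 1, 2 and 3, against 12.2, 33.3 and 9.40 in control replicates 1, 2 and 3. Each silica lung was far above each control lung, and silica replicate 2 was the highest. Lpo averaged 1627 ± 478 in silica lungs and 18.3 ± 13.1 in control lungs (SD, n = 3 each). The ratio of the means was 88.9 and that of the lowest silica to the highest control lung 40.5, and both rest on control signals so dim that background can set them. On the log2(signal + 16) scale, on which all log2 values here are given and which understates differences of dim genes, the silica minus control difference was 5.61 ± 0.31 (SE). Among the 14217 named genes this difference ranked 1 from the top. The Lpo signals of silica lungs differed 1.62-fold between the highest and the lowest animal.

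Pendrin had a measurable signal in both groups. Slc26a4 was at 1146, 1131 and 953 in silica replicates 1, 2 and 3, against 168, 133 and 125 in control replicates 1, 2 and 3. The groups did not overlap, and animals within a group lay close together, with a highest-to-lowest ratio of 1.20 in silica and 1.35 in control. Slc26a4 averaged 1076 ± 107 in silica lungs and 142 ± 23.0 in control lungs (SD, n = 3 each), a ratio of 7.58. The lowest silica lung stood 5.67 times above the highest control lung. Its log2 difference of 2.79 ± 0.14 (SE) ranked 10 from the top among the named genes.

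The Cftr signal, that of the anion channel, was 408, 250 and 271 in silica replicates 1, 2 and 3, against 118, 164 and 120 in control replicates 1, 2 and 3. Silica replicate 1 stood above the other silica lungs, and the lowest silica lung was 1.53 times the highest control lung. Cftr averaged 309.8 ± 85.8 in silica lungs and 134 ± 25.9 in control lungs (SD, n = 3 each), with a log2 difference of 1.10 ± 0.22 (SE) that ranked 172 from the top.

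Duox2, the measured NADPH oxidase of the system, was dim in both groups, which here means a mean signal under 50 in each. Its signal was 28.7, 36.0 and 20.2 in silica replicates 1, 2 and 3, against 55.6, 28.7 and 9.70 in control replicates 1, 2 and 3. The groups overlapped fully, with all silica values inside the range of the control values. Duox2 averaged 28.3 ± 7.91 in silica lungs and 31.3 ± 23.1 in control lungs (SD, n = 3 each). Its log2 difference was 0.01 ± 0.37 (SE), with a 95% interval from -0.90 to 0.92, so differences of either sign within that interval were not excluded by these arrays.

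**Figure D1:**
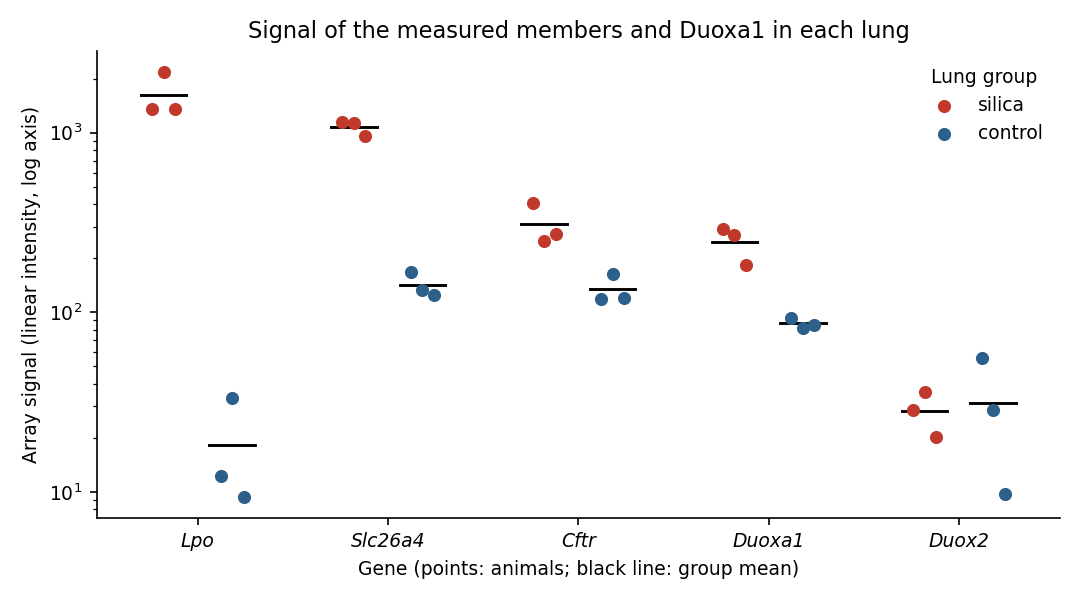
Array signal (linear intensity on a log axis) of Lpo, Slc26a4, Cftr, Duox2 and the DUOX1 maturation factor gene Duoxa1 in each lung, with points for animals and a black line for the group mean. Lpo, Slc26a4, Cftr and Duoxa1 separated the 3 silica from the 3 control lungs, whereas the Duox2 values of silica lungs, 20.2 to 36.0, lay inside those of control lungs, 9.70 to 55.6.

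Of the 4 measured genes, Lpo and Slc26a4 were past an adjusted p of 0.05 upward in limma's fit over all probe sets, and Cftr and Duox2 were not. In that fit 0.934% of all probe sets were past it upward and 1.08% in either direction, and 1.55% of named genes were past it upward when each gene was read by its brightest probe set. In Lpo, Slc26a4 and Cftr all silica lungs lay above all control lungs, as in 18.7% of named genes. Under alternative settings, Lpo was past the threshold in 11 of 16, Slc26a4 in 9 of 16, Cftr in 3 of 16 and Duox2 in 0 of 15. Since these signals had a part in choosing the genes, nothing is read from these counts. The order of animals within a group was not shared, as silica replicate 2 was highest for Lpo, silica replicate 1 for Slc26a4 and Cftr, and control replicate 2 for Lpo and Cftr but control replicate 1 for Slc26a4. Whole-lung RNA was measured, so a larger share of cells that carry a transcript and more of it per cell cannot be told apart in the higher values, nor fewer cells and less RNA per cell in lower ones.

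Duoxa1 was the single measured partner gene of the DUOX enzymes, and it was listed with other NADPH oxidase genes. Of 5 measured genes among 8 listed producers of hydrogen peroxide and their partners, 3 rose and none fell at an adjusted p of 0.05 (limma, Benjamini-Hochberg over all probe sets). Over all named genes 1.55% rose and 0.120% fell. The median log2 difference of the 5 was 1.04, against 0.02 over all named genes. Duoxa2, Nox3 and Noxa1 had no probe set of their own in the annotation. Duoxa1, the maturation factor of DUOX1, had 291, 268 and 184 in silica replicates 1, 2 and 3, against 93.1, 81.9 and 84.9 in control replicates 1, 2 and 3. Every silica lung was above every control lung, with silica replicate 3 the lowest of its group. The Duoxa1 log2 difference was 1.34 ± 0.18 (SE), with a limma adjusted p of 0.0422. In RefSeq the starts of Duoxa1 and Duox1 lie 1990 bases apart on opposite strands of chromosome 3, and the starts of Duoxa1 and Duox2 15253 bases apart.

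Noxo1, the organiser subunit of the NOX1 oxidase, had 460.2, 618 and 489 in silica replicates 1, 2 and 3, against 219, 214 and 163 in control replicates 1, 2 and 3. It rose by a log2 difference of 1.33 ± 0.17 (SE), with a limma adjusted p of 0.0399, while a further, dim Noxo1 probe set had -0.34 and did not pass. With the probe sets of a gene averaged, Noxo1 had a log2 difference of 0.49 and did not pass (limma adjusted p = 0.114, and 0.00115 to 0.247 over all alternatives). Cyba, the p22phox subunit that NOX1, NOX2 and NOX4 share, averaged 3308 ± 319 in silica lungs and 1600.2 ± 177 in control lungs (SD, n = 3 each) and rose by 1.04 on the log2 scale (limma adjusted p = 0.0394). The second Cyba probe set, which was dim, had a log2 difference of 0.97 and missed the threshold. The catalytic subunit gene Nox1 was dim in both groups and did not pass. Nox4, an oxidase that makes hydrogen peroxide without an organiser subunit, named after its values were seen, ran the other way. It averaged 81.2 ± 5.32 in silica lungs and 145 ± 37.9 in control lungs (SD, n = 3 each), with all silica lungs below all control lungs and a log2 difference of -0.71 ± 0.18 (SE, limma adjusted p = 0.137).

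Lpo belongs to the family of mammalian heme peroxidases. None of its 2 measured relatives passed, where 1.55% of all named genes rose and 0.120% fell. Mpo, the myeloperoxidase gene, had no probe set of their own in the annotation. Epx, the eosinophil peroxidase gene, was dim at 15.7 ± 12.7 in silica lungs and 16.8 ± 14.0 in control lungs (SD, n = 3 each), and did not pass. Pxdn, peroxidasin, which crosslinks collagen IV of basement membranes, averaged 3572 ± 409 in silica lungs and 4886 ± 291 in control lungs (log2 difference -0.45 ± 0.12, limma adjusted p = 0.152). The second Pxdn probe set averaged 1095 in silica lungs and 1974 in control lungs, with a log2 difference of -0.87 (limma adjusted p = 0.112).

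None of the 11 measured genes among 15 other anion transporters and channels passed, where 1.55% of all named genes rose and 0.120% fell. Their median log2 difference was -0.16, with 3 positive and 8 negative. Slc26a6, an exchanger of the same family as pendrin that carries chloride, bicarbonate and oxalate, had 334, 340 and 288 in silica replicates 1, 2 and 3, against 187, 188 and 152 in control replicates 1, 2 and 3. Its groups did not overlap, with a log2 difference of 0.81 ± 0.13 (SE) and a limma adjusted p of 0.0535. Slc26a8, which is known from sperm, had a log2 difference of 0.49. Named after their values were seen, 3 of the 11 had all silica lungs below all control lungs, against 12.7% of all named genes. The calcium-activated chloride channel gene Ano1 averaged 747 ± 80.8 in silica lungs and 1026 ± 36.0 in control lungs (SD, n = 3 each), with a log2 difference of -0.45. The chloride channel gene Clcn2, dim in both groups, had -0.81, and the chloride cotransporter gene Slc12a2 had -0.16. Slc5a5, the sodium and iodide symporter gene, was dim in both groups. Slc26a7, Slc26a9 and Slc26a11 had no probe set of their own in the annotation.

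Of 7 measured genes of bicarbonate and acid transport among 9 listed, none passed in either direction, and their median log2 difference was -0.07. The membrane carbonic anhydrase gene Car4 averaged 949 ± 95.4 in silica lungs and 1386 ± 73.1 in control lungs (SD, n = 3 each), with a log2 difference of -0.54 ± 0.12 (SE) that did not pass. The sodium bicarbonate cotransporter gene Slc4a7 had a log2 difference of 0.49 ± 0.22 (SE). Where 1.55% of all named genes rose and 0.120% fell, among 10 CFTR partners and potassium channels, all measured, 1 rose and none fell. It was Kcnn4, a calcium-activated potassium channel gene whose current drives chloride secretion, with 139, 171 and 136 in silica replicates 1, 2 and 3, against 51.4, 51.0 and 65.4 in control replicates 1, 2 and 3. All silica lungs were above all control lungs, with a log2 difference of 1.20 ± 0.14 (SE) and a limma adjusted p of 0.0330. P2ry2, the nucleotide receptor gene that stimulates calcium-activated secretion, had a log2 difference of 0.75 ± 0.18 (SE) and did not pass.

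Pendrin, lactoperoxidase and DUOX genes are known in airway epithelium as targets of interleukin 4, 13 and 17 and of interferon gamma. None of 11 measured genes among 14 listed cytokine inputs and receptors passed, where 1.55% of all named genes rose and 0.120% fell. Their log2 differences were positive in 8 and negative in 3. All silica lungs lay above all control lungs in 3 of the 11, against 18.7% of all named genes. Il4, Il13, Il17f and Ifng were all dim in both groups, and Il17a had no probe set of its own in the annotation. Ifng averaged 35.5 ± 13.0 in silica lungs and 12.6 ± 11.0 in control lungs (SD, n = 3 each), and did not pass. Il17ra, an interleukin 17 receptor gene, averaged 2948 ± 187 in silica lungs and 2009 ± 257 in control lungs (SD, n = 3 each), with a log2 difference of 0.56 ± 0.13 (SE, limma adjusted p = 0.118). Its partner Il17rc had a log2 difference of 0.32 ± 0.20 (SE) and did not pass.

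Over the 6 lists together, 46 of 60 genes were measured, and 4 of them, Duoxa1, Noxo1, Cyba and Kcnn4, rose and none fell, where 1.55% of all named genes rose and 0.120% fell. The median log2 difference was 0.05 over the 46 genes and 0.02 over all named genes. All silica lungs lay above all control lungs in 12 of the 46 genes and below them in 7, against 18.7% and 12.7% of all named genes. None of the 46 passed when any 1 array was left out, or with a pseudocount of 1. The absence of falls also depended on the setting. Pxdn, Ano1 and Car4 passed downward with the dimmer 50% of probe sets left out and with an intensity trend and robust spread, Car4 with a pseudocount of 64, and Clcn2 with quantile normalization and with averaged probe sets.

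**Figure D2:**
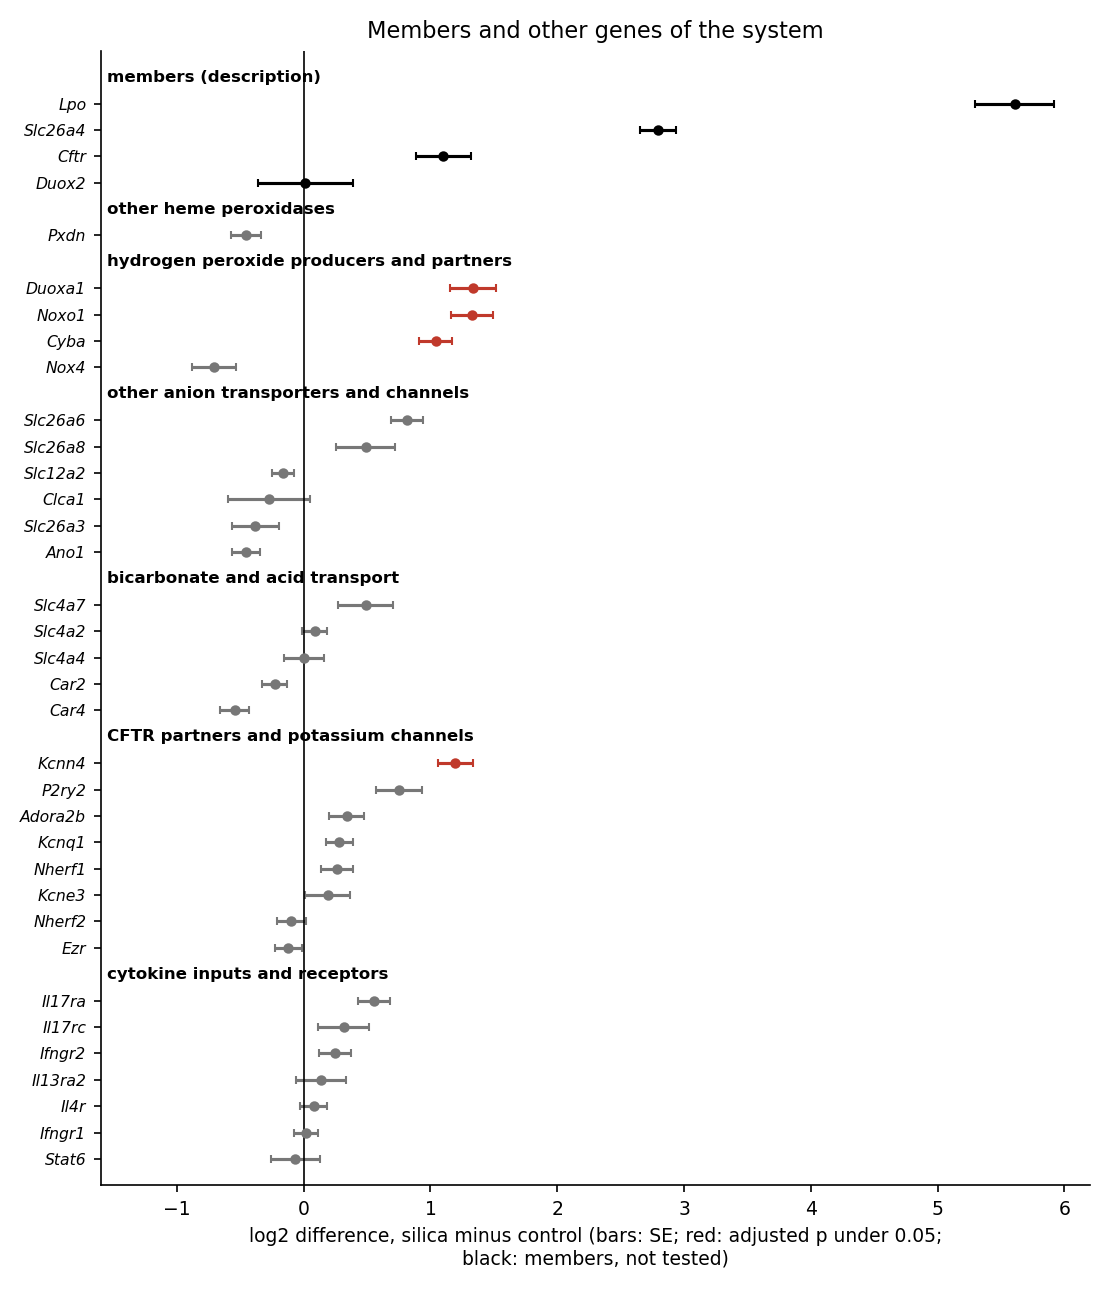
Silica minus control log2 difference with its SE for the measured members (black, shown as a description) and for the listed genes with a mean signal of at least 50 in either group, by role. Lpo at 5.61 and Slc26a4 at 2.79 lay beyond every listed gene, and the genes in red, Duoxa1, Noxo1, Cyba and Kcnn4, were past the adjusted p threshold.

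Markers of the cells that could carry these transcripts were summed in each lung. All 8 alveolar lung markers were bright in both groups, among them the surfactant gene Sftpa1 at 26226 ± 2357 in silica lungs and 27986 ± 1127 in control lungs (SD, n = 3 each), and none of the 8 passed. Their log2 differences ran from -0.24 to 0.05, with 6 negative and 2 positive. In 4 of the 8 all silica lungs lay below all control lungs, against 12.7% of all named genes. The summed signal of 10 measured secretory and goblet cell markers was 28308 to 34192 in silica lungs and 28817 to 37660 in control lungs. Without Scgb1a1, the brightest of them, the other 9 summed to 5001 to 6661 in silica lungs. In control lungs these 9 ranged more widely, from 3240 in replicate 2 to 10747 in replicate 3. None of these 10 passed, the mucin gene Muc5ac was dim in both groups, and the club cell gene Scgb1a1 averaged 24385 ± 4163 in silica lungs and 26460 ± 923 in control lungs (SD, n = 3 each). Bpifb1, an airway secretory gene named after its values were seen, had the largest log2 difference of that list, at 1.52 ± 0.49 (SE, limma adjusted p = 0.204). The list as a whole had 4 positive and 6 negative log2 differences, with a median of -0.04. Of 5 measured ciliated cell markers none passed, and their summed signal was lower in every silica lung, 8454 to 10463, than in every control lung, 10940 to 11410. That separation rested on Tppp3, since the other 4 ciliated markers summed to 1476 to 2121 in silica lungs and 1716 to 1949 in control lungs. Basal cell markers summed to 134 to 230 in silica lungs and 155 to 226 in control lungs, with none of 4 past the threshold.

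Pendrin and CFTR are also known from ionocytes and kidney intercalated cells, and lactoperoxidase from exocrine glands. Of 5 measured ionocyte and intercalated cell markers none passed and 4 were dim in both groups, including the defining factor Foxi1, with a summed signal of 182 to 219 in silica lungs and 127 to 175 in control lungs. Without Stap1, the brightest of them, the sums overlapped, at 77.5 to 148 in silica lungs and 67.1 to 96.0 in control lungs. All 6 measured exocrine gland markers were dim in both groups. They summed to 102 to 148 in silica lungs and 88.0 to 116 in control lungs. Thyroid also carries Slc26a4, Duox2 and Slc5a5, and 5 measured thyroid markers summed to 332 to 439 in silica lungs and 290 to 406 in control lungs, with none past the threshold.

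The summed leukocyte markers were higher in every silica lung than in every control lung. The 6 markers summed to 19970 to 27671 in silica lungs and 12922 to 14604 in control lungs, and without the brightest, S100a9, to 12994 to 15699 in silica lungs and 9111 to 9685 in control lungs. Of the 6, 2, the integrin gene Itgam and the macrophage gene Cd68, rose, where 1.55% of all named genes rose. In 5 of the 6 all silica lungs lay above all control lungs, against 18.7% of all named genes. Csf1r overlapped, at 2564 ± 344 in silica lungs and 2375 ± 53.2 in control lungs (SD, n = 3 each). The part of leukocytes in the values of Lpo, Slc26a4 and Cftr, or of Duoxa1, Noxo1, Cyba and Kcnn4, was not tested. A measure of RNA quality, the mean log2 ratio of 3-prime to 5-prime signal of actin and GAPDH control probe sets, ran from 1.15 to 1.67 in silica lungs and from 0.996 to 1.23 in control lungs. With that measure as a covariate the log2 differences were 5.43 for Lpo, 2.60 for Slc26a4, 0.85 for Cftr, -0.46 for Duox2 and 1.03 for Duoxa1, and no probe set on the array passed, with 3185 at an unadjusted p under 0.05.

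**Figure D3:**
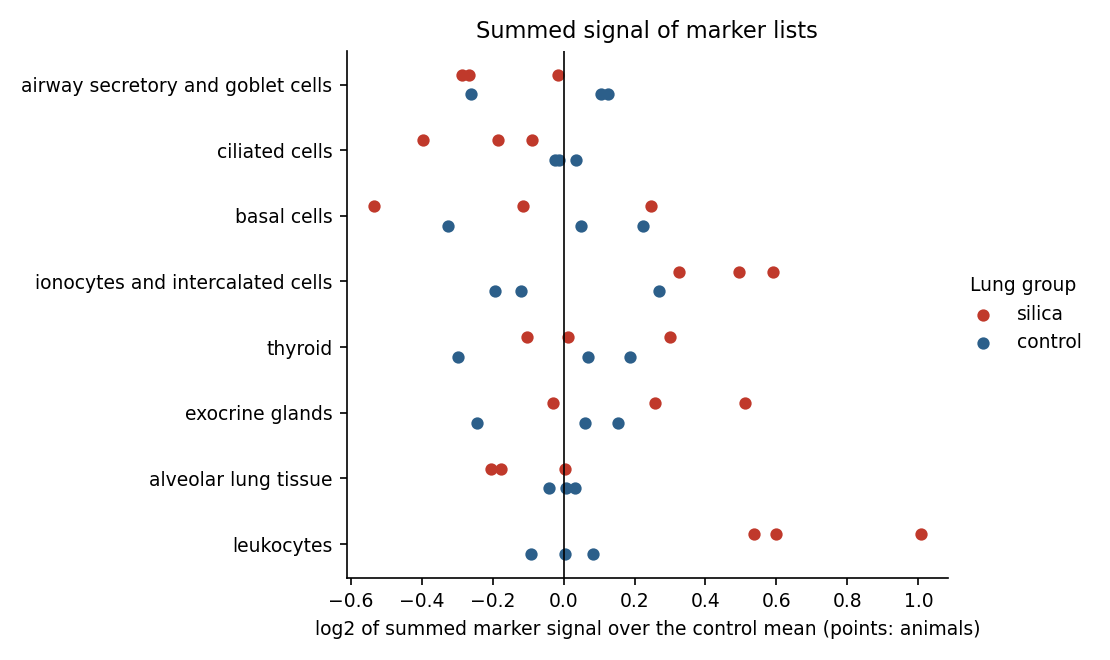
Summed signal of each marker list in each lung, as log2 of its ratio to the control mean of that list, with points for animals. The 3 silica lungs lay above the 3 control lungs for leukocytes and for the mostly dim ionocyte list, below them for ciliated cells, and overlapped them for the other lists; without the brightest marker the ionocyte and ciliated lists overlapped too.

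The profiles most like those of Lpo and Slc26a4 were sought among 11685 other named genes with a mean signal of at least 50 in either group. Likeness was the Euclidean distance over the 6 arrays of log2 values set against the control mean, so a small distance means a similar log2 difference in the same animals on this scale. The closest profile to Lpo was that of the acute-phase gene Saa3, at a distance of 3.41, followed by Orm1 at 3.51, Mmp12 at 4.27, Cxcl11 at 4.55 and Cxcl9 at 4.55. Their silica minus control differences ran from 3.10 to 3.67 on the log2 scale. All were smaller than that of Lpo, as was that of every other named gene, because Lpo ranked 1. The distances largely reflect the size of the difference, and shared regulation of these genes was not tested. Orm1, at 506 ± 186 in silica lungs and 25.2 ± 4.21 in control lungs (SD, n = 3 each), entered the search through the silica group. Its log2 difference was 4.22 with a pseudocount of 1 and 2.63 with 64. Slc26a4, which ranked 10 in log2 difference, had neighbours at much smaller distances. The secretin receptor gene Sctr lay at a distance of 0.57, but with a signal of 128 ± 22.3 in silica lungs and 2.40 ± 0.30 in control lungs (SD, n = 3 each) it entered the search through the silica group, and its likeness depends on the pseudocount. Its log2 difference was 5.24 with a pseudocount of 1 and 1.53 with 64, where Slc26a4 had 2.92 and 2.47. Next came monocyte attractant genes Ccl7 and Ccl2 at 0.59 and 0.60, Retnla at 0.95 and Ubd at 1.07. All of these genes rose and were chosen for their likeness in this comparison, so their likeness is a description.

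**Figure D4:**
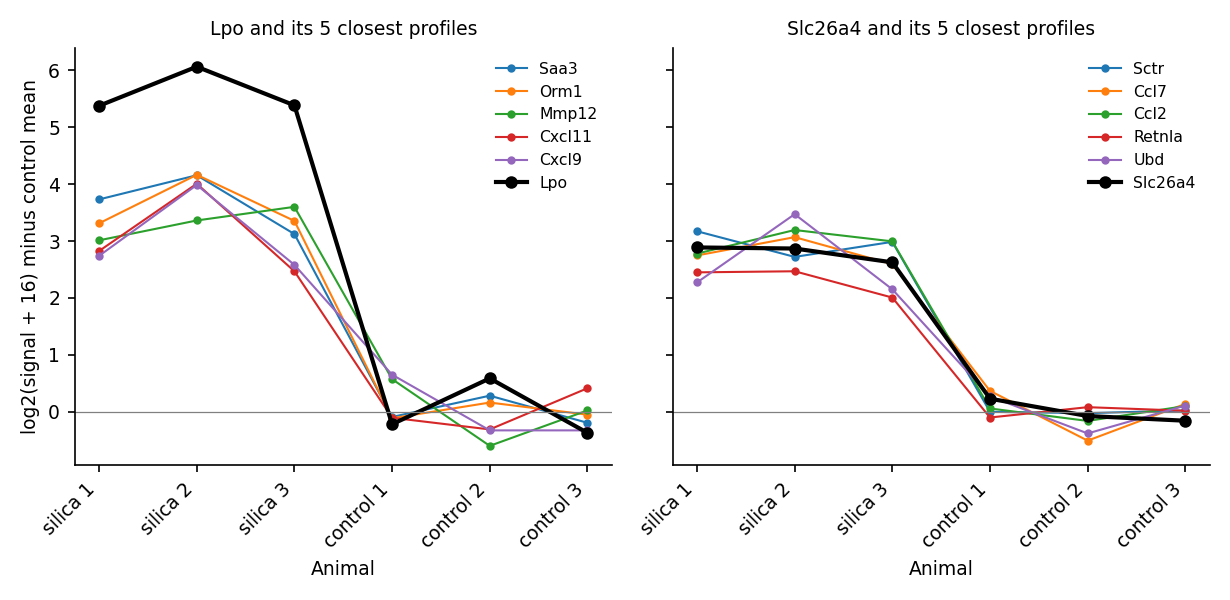
Log2(signal + 16) minus the control mean in each animal for Lpo (left panel) and Slc26a4 (right panel), in black, with the 5 named genes of closest profile in colour. Lines join the animals for 1 gene and imply no order. Lpo, which ranked 1 in log2 difference among the named genes, stood above its closest profiles in all 3 silica lungs. Slc26a4 lay among its own.

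The log2 differences of the members kept their order under the settings tried. Lpo ran from 4.34 with a pseudocount of 64 to 6.56 with a pseudocount of 1, Slc26a4 from 2.47 to 2.92 and Cftr from 0.85 to 1.24. Duox2 took either sign, from -0.46 with the RNA quality covariate to 0.37 without control replicate 1.

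**Figure D5:**
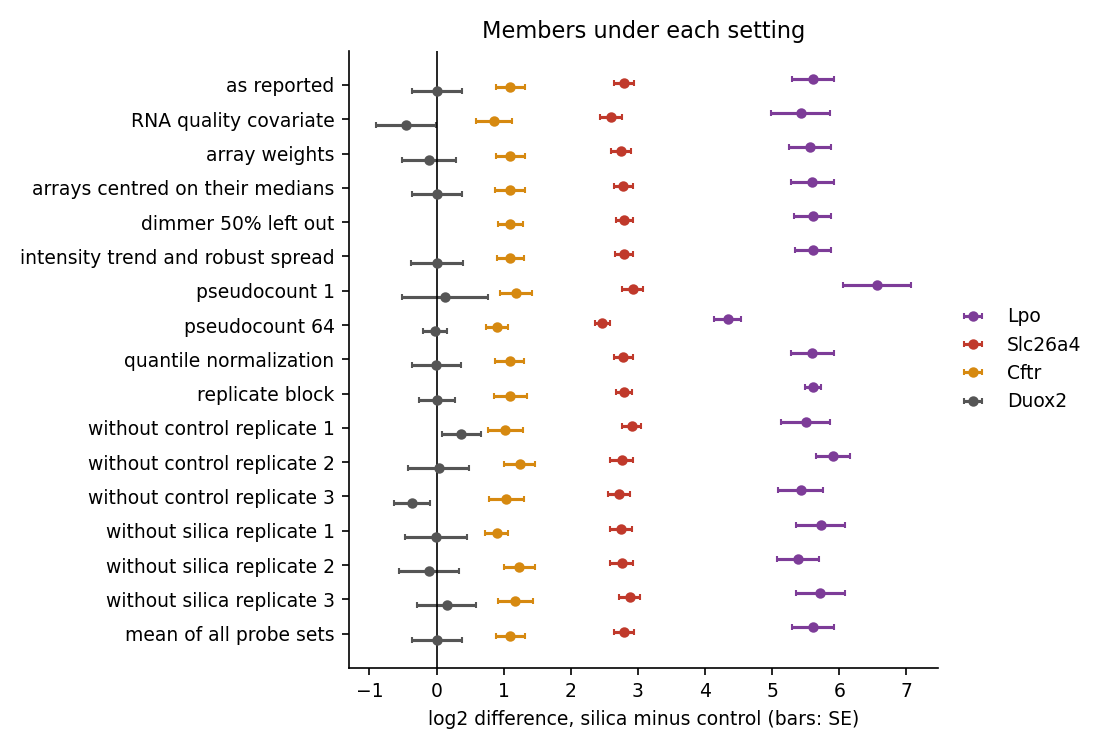
Silica minus control log2 difference with its SE for Lpo, Slc26a4, Cftr and Duox2 as reported and under each alternative setting. Lpo ran from 4.34 to 6.56 and Slc26a4 from 2.47 to 2.92, while Duox2, dim in both groups, straddled 0.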

How the data were processed

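The authors deposited 1 linear signal intensity per probe set and array. Per the labels' protocols, in vitro transcription gave cRNA labelled with biotin. The software used to summarise probes is stated neither in the labels nor in the file. Judged by the values, the mean of each array after trimming 2% at each end was 500.1, so the deposited intensities had been scaled by 1 factor per array. Of 31099 probe sets, 57 array controls were left out. Gene names came from the platform annotation, updated by gene identifier to RefSeq (GRCr8) symbols: 20826 probe sets had 1 gene, of which 20758 matched, 436 had several and 9780 are unnamed here. A gene's brightest probe set over all arrays represents it.

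Values were analysed as log2(signal + 16), on which array medians lay between 7.38 and 7.42, by limma 3.58.1 (lmFit, eBayes) in R 4.3.3, with no term but group. P-values were adjusted by Benjamini-Hochberg over 31042 probe sets, with a threshold of 0.05. An exact permutation test of 3 against 3 cannot go below 0.1. The fit was tested on simulated data. The number of arrays limits the precision.

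The members, lists and tests were chosen with earlier results of these data known. Named were all members, each listed gene of the system past the threshold, the 2 largest absolute differences per list with a mean signal of 50 or more in either group, the brightest marker per list, and the 5 nearest profiles of Lpo and Slc26a4. The alternatives were quantile normalization, median centring, pseudocounts 1 and 64, leaving out the dimmer 50% of probe sets, a robust spread with an intensity trend, the replicate block, array weights, an RNA quality covariate, leaving out 1 array at a time and averaging a gene's probe sets. Some listed items are not reported here.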

Additional observations from a re-analysis of the deposited data

How the results depend on the processing

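The 335 probe sets past the threshold (290 higher, 45 lower) became 1675 (1044 higher, 631 lower) with the dimmer 50% left out, 1862 (1141 and 721) with an intensity trend and robust spread, 919 (707 and 212) with pseudocount 64 and 43 (39 and 4) with pseudocount 1. With the RNA quality covariate limma called 0, with 3185 at an unadjusted p under 0.05. Leaving out 1 array gave 0 to 12, with 4024 to 5427 at an unadjusted p under 0.05. The 4 listed genes of the system past the threshold (4 higher, 0 lower, of 46 tested) became 8 (5 higher, 3 lower, of 24 tested) with the dimmer 50% left out, 10 (7 and 3, of 46) with the trend, 0 with pseudocount 1, 0 with the RNA quality covariate and 0 to 0 with 1 array left out. The cause of these shifts was not tested.

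The Lpo difference moved to 6.56 with pseudocount 1 and to 4.34 with pseudocount 64, and lay between 5.38 and 5.90 with 1 array left out. Slc26a4 moved to 2.60 with the RNA quality covariate and 2.47 with pseudocount 64, and lay between 2.72 and 2.91 with 1 array left out. Cftr lay between 0.90 and 1.24 and Duox2 between -0.37 and 0.37 with 1 array left out.

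The replicate numbers of the labels did not qualify as pairs: deviations of same-numbered arrays correlated at 0.09, 0.04 and 0.09, although each silica array correlated best with its own number. With the replicate block 1 probe set passed, that of Lpo, which had been chosen on these signals, and 0 listed genes of the system. The smallest group size, 3, and the dim signals of Duox2, of Lpo in control lungs and of the cytokine genes limit what these arrays can show. Summing marker lists without their brightest marker was added after seeing the data.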
